A study of Homo sapiens with 9 samples.

Results

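The early growth response (EGR) factors and their NAB corepressors were followed in the human breast cancer line MDA-MB-231, kept in medium of low or raised viscosity. The family comprised 6 of the 60664 genes listed, namely *EGR1*, *EGR2*, *EGR3*, *EGR4*, *NAB1* and *NAB2*. With all 9 samples, all 6 passed the filter on low counts, *EGR4* only through the samples at the lower viscosity. They were chosen by family membership after low values of EGR genes at 8 cP had been seen in these same samples, so the comparison of the 2 viscosities is a description of the members and was not tested for them. RNA was sequenced in 3 groups of 3 samples on day 6. SC cells, a stable line carrying a scramble hairpin in the pLKO.1 puro vector, were kept at 0.77 cP or at 8 cP, and shTRPV4 cells, a stable line carrying a single hairpin against *TRPV4* in the same vector, were kept at 8 cP. *TRPV4* encodes a calcium-permeable ion channel of the plasma membrane. All cells grew in IMDM with serum, and methylcellulose was added to reach 8 cP. The experiment asked whether a raised viscosity leaves a transcriptional trace in the cells that depends on *TRPV4*. Knockdown cells at the lower viscosity are not analysed here, so a change of the viscosity effect by the knockdown could not be tested.

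EGR1 to EGR4 are zinc finger transcription factors that bind a GC-rich sequence. Their genes are immediate early genes, which are transcribed within minutes of growth factor, calcium, stress or mechanical signals through serum response factor (SRF) and its partners, without new protein synthesis, and whose transcripts are short-lived. NAB1 and NAB2 bind a repressor domain that EGR1, EGR2 and EGR3 carry and EGR4 lacks, and recruit chromatin-modifying complexes, among them NuRD through CHD4. *NAB2* is itself a target gene of EGR factors, so that the pair forms a negative feedback loop.

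The sequence just upstream of a RefSeq start is shown for *EGR1*, whose CArG boxes are the class of site that SRF binds, and for both NAB genes, whose products bind the EGR factors. The *NAB1* window lies inside the annotated gene, which begins at base 190646746, so it is not upstream of all its transcripts. Each line holds at most 250 bases before the RefSeq start (GRCh38.p14), with bases that belong to any annotated exon left out, 5′ to 3′ on the strand of the gene. Capitals mark CArG boxes and matches to the EGR site, GCGNGGGCG, on either strand.
EGR1, chr5:138465229-138465478, plus strand: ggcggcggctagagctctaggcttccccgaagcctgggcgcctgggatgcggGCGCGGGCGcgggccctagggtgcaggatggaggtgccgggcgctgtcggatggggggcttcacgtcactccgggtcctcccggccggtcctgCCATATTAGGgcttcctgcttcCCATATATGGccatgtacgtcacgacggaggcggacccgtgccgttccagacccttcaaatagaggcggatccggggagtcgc
NAB1, chr2:190648645-190648894, plus strand: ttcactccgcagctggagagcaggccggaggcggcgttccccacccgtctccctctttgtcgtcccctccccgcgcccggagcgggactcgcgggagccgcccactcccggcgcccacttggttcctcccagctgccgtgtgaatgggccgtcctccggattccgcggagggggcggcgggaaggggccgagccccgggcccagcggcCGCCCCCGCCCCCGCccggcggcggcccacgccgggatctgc
NAB2, chr12:57088864-57089042, plus strand: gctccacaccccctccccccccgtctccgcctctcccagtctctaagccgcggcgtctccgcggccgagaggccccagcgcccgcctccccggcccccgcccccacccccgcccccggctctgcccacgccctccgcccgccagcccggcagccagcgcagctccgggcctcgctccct

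The *EGR1* window held 2 CArG boxes, at bases 146 to 155 and 168 to 177, and 1 EGR site at bases 53 to 61. Of 35116 promoters searched over the same 250 bases, 1.16% held a CArG box and 0.0313% held 2 or more. The *NAB1* window held 2 EGR sites on the other strand, at bases 209 to 217 and 215 to 223, which overlap each other and overlap GC boxes. An EGR site stood in 8.41% of all promoters. The *NAB2* window, only 179 bases long after trimming, held no EGR site and 3 GC boxes (GGGCGG), a motif found in 42.6% of promoters. The other windows read were those of *EGR2*, with 2 GC boxes in 250 bases, and of *EGR4*, with no match in 97 bases. The exact spellings TGACGTCA (a cyclic AMP response element, 1.65% of promoters) and CGGAAG (an ETS-type site, 16.5%) were in none of the 5 windows searched. Shorter or variant spellings of these sites were not searched for, so their absence from the windows is not shown. *EGR3* had no entry in the promoter table. These matches are letters in a window and say nothing of binding in these cells.

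The samples held between 64571681 and 103518036 counts, and 18264 genes were tested. *TRPV4*, the gene that the hairpin targets, had 40, 28 and 54 counts in SC cells at 0.77 cP, 64, 45 and 24 in SC cells at 8 cP, and 7, 1 and 13 in shTRPV4 cells. It was 5.91-fold higher in SC than in shTRPV4 cells at 8 cP (log2 fold change 2.51, SE 0.49, edgeR quasi-likelihood adjusted p = 0.00219). All 8 genes chosen as markers of the line, among them *VIM*, *CD44* and *KRT8*, exceeded 1 CPM (counts per 1000000, with library sizes scaled by TMM) in every sample. Their summed level ran from 6530 to 6870 CPM in SC cells at 0.77 cP, from 5660 to 6040 in SC cells at 8 cP and from 4990 to 5530 in shTRPV4 cells. Of 5 genes that are low or of low protein level in this line, *ESR1*, *PGR* and *CDH1* had at most 12 counts in any sample, whereas *ERBB2* (89.6 to 96.8 CPM) and *EPCAM* (16.9 to 19.4 CPM) were read. Of 10 markers of blood, endothelial, stromal, muscle and glial cells, *PECAM1* alone exceeded 1 CPM in all samples (1.98 to 6.22 CPM). The sum of these markers was 4.97 to 7.37 CPM in SC cells at 0.77 cP, 3.51 to 3.89 in SC cells at 8 cP and 3.65 to 4.43 in shTRPV4 cells, and its part in the results was not tested.

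*EGR1* was the most abundant member in every sample, though only narrowly in replicate 1 of the shTRPV4 cells (37.1 CPM beside 30.6 for *NAB1*). Its level was 5.71-fold lower in SC cells at 8 cP than at 0.77 cP. *EGR1* (ENSG00000120738) is a plus-strand gene of chromosome 5, spanning bases 138465479 to 138469303 (GRCh38), and its canonical transcript has 2 exons. The level in SC cells at 0.77 cP was 465, 529 and 517 CPM in replicates 1 to 3. In SC cells at 8 cP it was 87.4, 83.7 and 93.8 CPM. The samples at 8 cP all lay far below those at 0.77 cP, with a difference many times the spread of either group. The fitted log2 fold change was -2.51 (SE 0.15), the 25th lowest of the 18264 genes. In shTRPV4 cells at 8 cP the level was 37.1, 54.3 and 69.5 CPM, so that every knockdown sample lay below every SC sample. In RNA of whole cultures, fewer cells with a transcript and less of it per cell cannot be told apart.

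The 3 scarcer EGR genes were further apart between the viscosities than *EGR1*. *EGR2*, known for its role in myelination by Schwann cells, is a minus-strand gene of chromosome 10, bases 62811996 to 62819167 (ENSG00000122877, 2 exons). It stood at 3.11, 6.16 and 4.35 CPM in SC cells at 0.77 cP and at 0.677, 0.538 and 0.540 CPM in SC cells at 8 cP. The groups did not overlap, and the mean ratio was 7.75-fold (log2 fold change -2.94, SE 0.24). In shTRPV4 cells *EGR2* had 0.448, 0.268 and 0.243 CPM, which rests on 41, 21 and 22 counts. All 3 of these samples lay below the SC samples at 8 cP.

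*EGR3*, an EGR factor known from muscle spindles and lymphocytes, is a minus-strand gene of chromosome 8, bases 22687659 to 22693480 (ENSG00000179388, 2 exons). Its levels were 6.12, 9.20 and 6.64 CPM in SC cells at 0.77 cP and 0.516, 0.497 and 0.551 CPM in SC cells at 8 cP. The value at 0.77 cP was 14.0-fold higher (log2 fold change -3.80, SE 0.19, for 8 cP against 0.77 cP), and the SC samples at 8 cP had a coefficient of variation of 5.25%, below the 14.2% that counting error alone gives for 48 to 51 counts. In shTRPV4 cells *EGR3* had 0.164, 0.281 and 0.310 CPM, from 15, 22 and 28 counts, again below every SC sample. It shares 164 exon bases with ENSG00000253125 on the other strand, which had 2 to 11 counts per sample.

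*EGR4*, the member without the NAB-binding domain, was the least abundant and had the largest ratio between the viscosities. It is a minus-strand gene of chromosome 2, bases 73290929 to 73293701 (ENSG00000135625, 2 exons). It had 1.44, 1.75 and 1.77 CPM in SC cells at 0.77 cP and 0.101, 0.0828 and 0.0551 CPM in SC cells at 8 cP. The latter are 10, 8 and 5 counts. The log2 fold change was -4.34 (SE 0.41), a 20.7-fold lower level and the 4th lowest value of all genes tested. *EGR4* was among the genes tested only through its counts at 0.77 cP, so nothing is read from that rank. In shTRPV4 cells *EGR4* had 0, 8 and 9 counts, where the count of 0 in replicate 1 allows up to 0.0327 CPM (3 counts, counting error only).

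Both NAB genes were far closer between the viscosities than the EGR genes were. Both are plus-strand genes, *NAB1* at bases 190646746 to 190692766 of chromosome 2 (ENSG00000138386, 10 exons) and *NAB2* at bases 57089043 to 57095476 of chromosome 12 (ENSG00000166886, 7 exons). *NAB1* had 37.2, 39.9 and 35.0 CPM in SC cells at 0.77 cP, 33.9, 32.0 and 30.1 CPM in SC cells at 8 cP, and 30.6, 32.9 and 32.1 CPM in shTRPV4 cells. Its SC groups were adjacent without overlap, and the 2 groups at 8 cP shared the same range. *NAB2* had 48.0, 46.0 and 41.0 CPM in SC cells at 0.77 cP, 38.8, 39.4 and 34.9 CPM in SC cells at 8 cP, and 24.5, 28.1 and 28.4 CPM in shTRPV4 cells. For *NAB2* the 3 groups were stepped, with no overlap between any pair. The log2 fold change between the viscosities was -0.22 (SE 0.060) for *NAB1* and -0.25 (SE 0.070) for *NAB2*, which ranked 4018th and 3609th from the lowest.

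**Figure D1:**
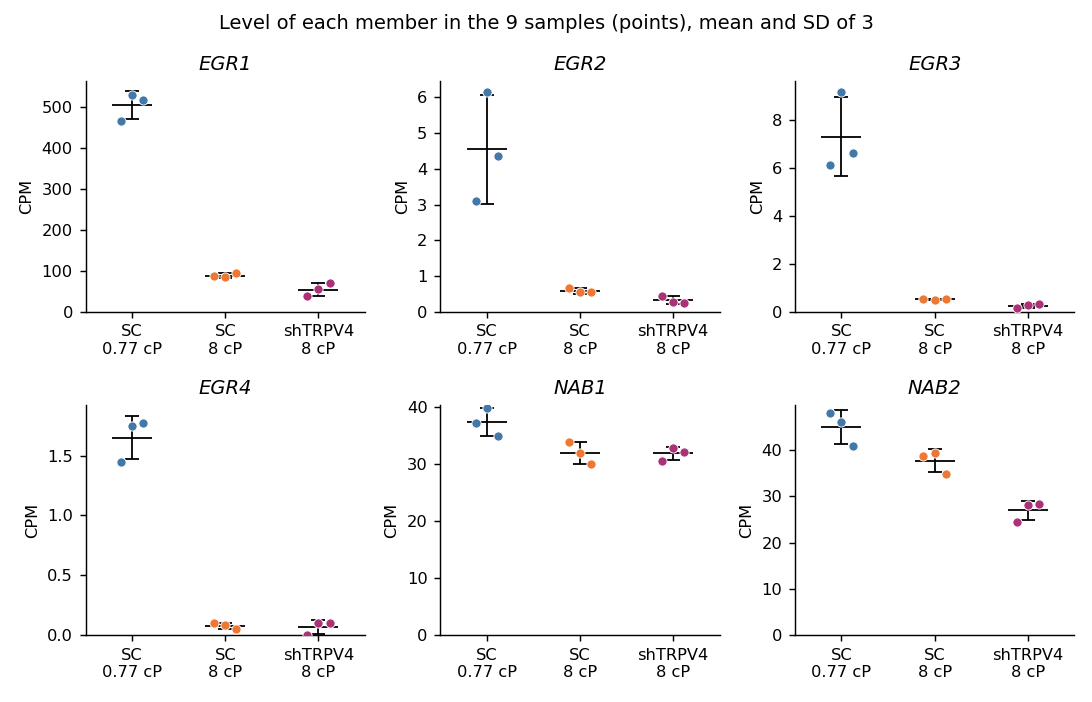
Level of each member (CPM, linear axis from 0) in the 9 samples, one panel per gene, with points for samples, a bar for the mean and whiskers for the SD of 3 samples. The EGR samples at 8 cP sit far below those at 0.77 cP (*EGR1* from a mean of 504 to 88.3 CPM), whereas *NAB1* stays between 30.1 and 39.9 CPM in all samples and *NAB2* is stepped, with means of 45.0, 37.7 and 27.0 CPM.

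Across all genes tested, the SC cells at the 2 viscosities differed in 19.3% of genes (edgeR adjusted p below 0.05), with 9.69% lower and 9.57% higher at 8 cP. A fitted log2 fold change of -1 or lower was found for 2.37% of genes, and for 4 of the 6 members (*EGR1* to *EGR4*). The CPM values of the groups did not overlap for 38.4% of genes and for all 6 members, each of which was lower at 8 cP. Since this comparison was used to choose the members, nothing was read from these counts.

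Between SC and shTRPV4 cells at 8 cP, 3 of the 6 members passed the test, and *EGR1*, *EGR3* and *NAB2* were all higher in SC cells. In this comparison 20.0% of all genes passed the test, 11.0% higher and 9.02% lower in SC cells. It shares its 3 SC samples with the comparison that chose the members, so that the sets of values are not independent. *EGR1* was 1.65-fold higher in SC cells (88.3 ± 5.12 against 53.6 ± 16.2 CPM, SD, n = 3 each), with a log2 fold change of 0.72 (SE 0.14, edgeR adjusted p = 0.00235). The test uses 1 estimate of spread for all 3 groups, although the coefficient of variation of *EGR1* was 5.80% in these SC cells and 30.2% in shTRPV4 cells. With only the 6 samples of this comparison fitted, the edgeR adjusted p was 0.00618. *EGR3* was 2.07-fold higher (0.521 ± 0.0273 against 0.251 ± 0.0773 CPM), with a log2 fold change of 1.05 (SE 0.27, edgeR adjusted p = 0.0112). Without replicate 1 of the shTRPV4 cells, the *EGR3* value was 0.81 and no longer passed (edgeR adjusted p = 0.0517). *NAB2* was 1.40-fold higher (37.7 ± 2.45 against 27.0 ± 2.13 CPM), with a log2 fold change of 0.48 (SE 0.071, edgeR adjusted p = 0.000237). The knockdown cells are a different stable line from the SC cells, so differences between the lines and effects of the hairpin cannot be told apart.

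The other 3 members did not pass the test. *EGR2* was 1.83-fold higher in SC cells (0.585 ± 0.0799 against 0.320 ± 0.111 CPM), with a log2 fold change of 0.86 (95% interval 0.20 to 1.52, edgeR adjusted p = 0.0631). Its call turned with the processing. It passed with DESeq2 (adjusted p = 0.0167), without a filter on low counts, and without replicate 1 or 2 of the SC cells at 0.77 cP (edgeR adjusted p = 0.0323 and 0.0313) or replicate 1 of the shTRPV4 cells (edgeR adjusted p = 0.0244). For *EGR4* the log2 fold change was 0.28, with a 95% interval from -1.03 to 1.59 (edgeR adjusted p = 0.797), and it was -0.32 without replicate 1 of the shTRPV4 cells. At 0 to 10 counts per sample, differences within that interval were not detectable at this depth. *EGR4* passed the filter on low counts only through its counts at 0.77 cP. It did not pass when the 6 samples of this comparison were fitted alone, so no conclusion is drawn from its test. For *NAB1* the interval was narrow, from -0.12 to 0.14 around 0.0064 (edgeR adjusted p = 0.957), and the sign turned without replicate 1 of the SC cells at 8 cP (-0.038) or replicate 1 of the shTRPV4 cells (-0.021). The values of the groups did not overlap for *EGR1*, *EGR2*, *EGR3* and *NAB2*, which is 4 of 6 members against 36.3% of all genes.

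**Figure D2:**
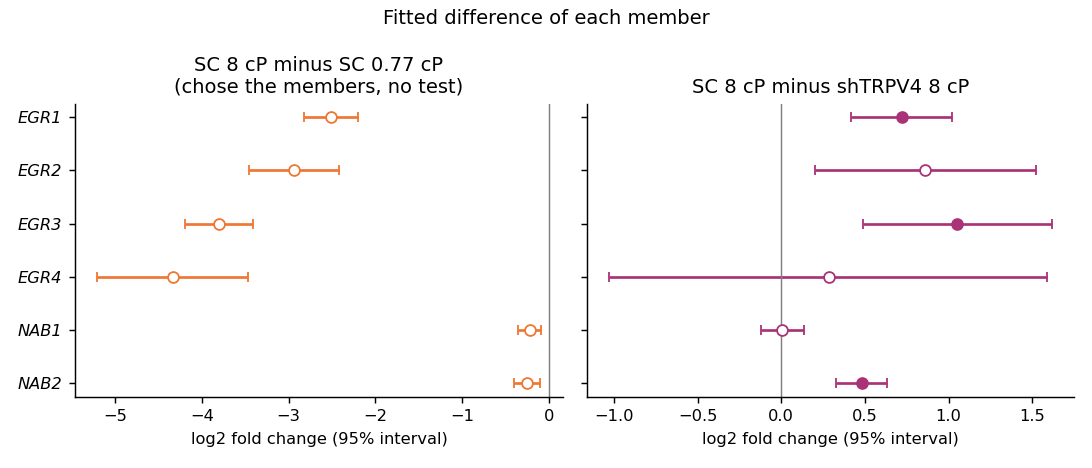
Fitted log2 fold change of each member with its 95% interval, for SC cells at 8 cP, set against those at 0.77 cP (left, no test) and against shTRPV4 cells at 8 cP (right, filled where the adjusted p is below 0.05). On the left the EGR genes lie between -2.51 and -4.34 and both NAB genes near -0.2, and on the right *EGR1*, *EGR3* and *NAB2* are filled and the *EGR4* interval spans 0 widely.

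The levels of shTRPV4 cells at 8 cP were further from SC cells at 0.77 cP than those of SC cells at 8 cP were for *EGR1*, *EGR2*, *EGR3* and *NAB2*, in every sample. For *EGR4* and *NAB1* the groups at 8 cP overlapped. This pair differs in viscosity and in the hairpin at once, so it is given by its levels. The fitted log2 difference was -3.23 for *EGR1*, -3.80 for *EGR2*, -4.86 for *EGR3*, -4.62 for *EGR4*, -0.23 for *NAB1* and -0.74 for *NAB2*. All 6 members were lower in the knockdown samples without overlap, and 50.6% of all genes had groups that did not overlap in one direction or the other.

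Per kilobase of exon, the scale on which genes can be compared with each other, the order of the members was *EGR1*, *NAB2*, *NAB1* and then the 3 scarcer EGR genes in all groups. At 0.77 cP the mean level was 161 CPM per kb for *EGR1*, 15.7 for *NAB2*, 7.65 for *NAB1*, 1.45 for *EGR3*, 1.22 for *EGR2* and 0.696 for *EGR4*. *EGR3* (1.22 to 1.83) and *EGR2* (0.838 to 1.66) overlapped there, and no other neighbours did. In SC cells at 8 cP *EGR1* stood at 28.1 CPM per kb, *NAB2* at 13.2 and *NAB1* at 6.55. *EGR2* (0.158), *EGR3* (0.104) and *EGR4* (0.0336) followed with no overlap between neighbours, *EGR2* now above *EGR3*. In shTRPV4 cells the means were 17.1 for *EGR1*, 9.44 for *NAB2*, 6.52 for *NAB1*, 0.0862 for *EGR2*, 0.05 for *EGR3* and 0.0283 for *EGR4*, with overlap only between *EGR3* and *EGR4*.

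The EGR transcripts together were almost entirely *EGR1*. The 4 genes summed to 151, 173 and 168 CPM per kb in SC cells at 0.77 cP, to 28.2, 27.0 and 30.2 in SC cells at 8 cP, and to 12, 17.5 and 22.3 in shTRPV4 cells. *EGR1* made up 97.6 to 98.2% of this sum in SC cells at 0.77 cP, 98.8 to 99.1% in SC cells at 8 cP and 98.7 to 99.2% in shTRPV4 cells. The *EGR3* share was 0.785 to 1.06% at 0.77 cP and 0.363 to 0.366% in SC cells at 8 cP. Shares of *EGR2* overlapped among the 3 groups, from 0.294 to 1.01% over all samples.

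EGR transcripts outweighed NAB transcripts by most in SC cells at 0.77 cP. The summed EGR level was 6.19 to 7.82 times the summed NAB level in SC cells at 0.77 cP, 1.33 to 1.64 times in SC cells at 8 cP and 0.808 to 1.35 times in shTRPV4 cells. The last 2 groups overlapped (exact two-sided permutation p = 0.2). The ratio of *NAB2* to *NAB1* per kilobase was 2.20, 1.97 and 2 in SC cells at 0.77 cP and 1.95, 2.10 and 1.98 in SC cells at 8 cP, so that the SC groups overlapped. In shTRPV4 cells it was 1.37, 1.46 and 1.51, below all SC samples. For SC against shTRPV4 cells at 8 cP the exact two-sided permutation p was 0.1, the smallest that 3 against 3 samples can give.

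**Figure D3:**
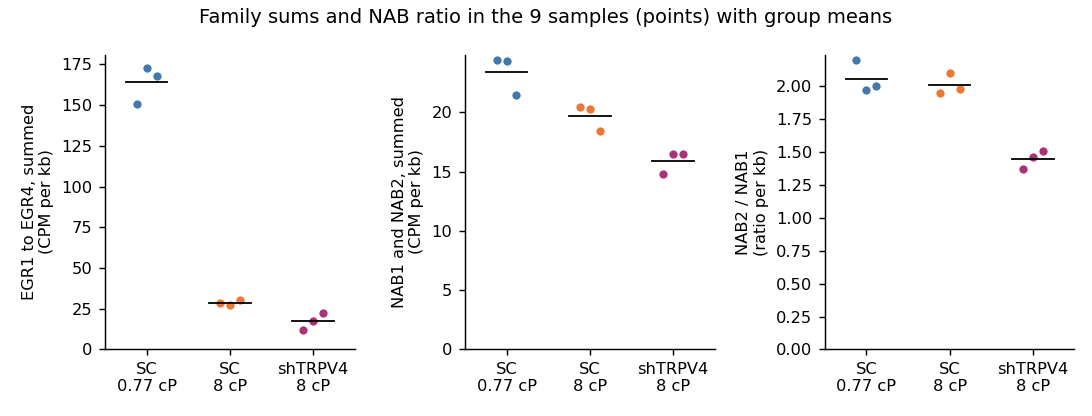
Summed EGR level (left), summed NAB level (middle), both in CPM per kilobase of exon, and the ratio of *NAB2* to *NAB1* (right) in the 9 samples, with a line at each group mean and axes from 0. The EGR sum has group means of 164, 28.5 and 17.3, the NAB sum of 23.4, 19.7 and 15.9, and the ratio lies near 2 in both SC groups and at 1.37 to 1.51 in shTRPV4 cells.

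The spread between replicates was uneven over the family. *EGR1* had a coefficient of variation of 6.70% in SC cells at 0.77 cP and 5.80% in SC cells at 8 cP, and of 30.2% in shTRPV4 cells. Counting error alone would give 1.47% there. This spread was larger than that of 99.9% of genes with at least 10 CPM in the shTRPV4 group, whose median was 4.43%. *NAB1* and *NAB2* varied by 3.65% and 7.90% in the same samples. Replicate 1 of the shTRPV4 cells was the lowest of its group for *EGR1*, *EGR3*, *EGR4*, *NAB1* and *NAB2*, and the highest for *EGR2*. *EGR2* also varied by 33.8% at 0.77 cP, where counting error would give 5.14%.

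Genes whose pattern over the 9 samples was most like that of *EGR1* were found by the root mean square difference of log2 CPM (prior count 2, each gene centred on its mean). They were *FOS*, an AP-1 subunit and immediate early gene, at 0.31, *HES1*, a Notch-responsive repressor, at 0.33, *SNAI1*, a regulator of epithelial-mesenchymal transition, at 0.35, *ATF3*, a stress-induced factor, at 0.37, and *NR4A2*, an orphan nuclear receptor, at 0.39. Their log2 values for 8 cP against 0.77 cP in SC cells ran from -2.09 for *FOS* to -2.71 for *SNAI1*, beside -2.51 for *EGR1*. Within the family *EGR2* was the 14th most alike gene (0.51), *EGR3* the 44th (0.66) and *EGR4* the 124th (0.86), whereas *NAB2* was 1122nd and *NAB1* 3972nd. For *NAB2* the nearest genes were *FBLN7* (0.041), *ARHGAP45* (0.041), *PGK1* (0.043), *STK17A* (0.044) and *SEMA6B* (0.046). *NAB1* was 2556th (0.24) by that measure. The samples share libraries and group differences, and small distances are usual for genes that vary little.

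Of 35 genes known to respond to EGR factors, 31 were tested, and 11 passed the test between the viscosities in SC cells, all of them lower at 8 cP. That is 35.5% of the list, beside 19.3% of all genes, and the median log2 fold change was -0.15, beside -0.0065 over all genes. The list was chosen with earlier results of these data known, so nothing was read from its shares, here or against shTRPV4 cells. At an unadjusted p below 0.05, 2 were higher with edgeR, and 1 was higher after adjustment with DESeq2. *ATF3* had the smallest adjusted p (log2 fold change -2.50, SE 0.072, edgeR adjusted p = 2.35e-12), with means of 73.8 ± 6.30 and 13.1 ± 0.200 CPM. *ARC*, a synaptic plasticity gene, was at 1.62 ± 0.389 and 0.160 ± 0.0358 CPM (log2 fold change -3.34, SE 0.30, edgeR adjusted p = 3.25e-06). *CDKN1A*, the cell cycle inhibitor p21, had a log2 fold change of -0.48 (SE 0.042, edgeR adjusted p = 2.36e-06), and *GADD45A*, a growth arrest gene, one of -0.65 (SE 0.063, edgeR adjusted p = 5.82e-06). The other 7 were *ID3*, *GDF15*, *CBLB*, *CDK5R1*, *FN1*, *TGFB1* and *ICAM1*, between -0.31 and -0.97. *ATF3* and *ARC* are immediate early genes themselves.

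Between SC and shTRPV4 cells at 8 cP the same list was split. Of the 31 genes, 16 passed the test (51.6%, beside 20.0% of all genes), 9 of them higher and 7 lower in SC cells, with a median of 0.089 beside -0.00064 over all genes. *F3*, the coagulation starter tissue factor, was lower in SC cells (434 ± 6.63 against 586 ± 19.6 CPM, log2 fold change -0.43, SE 0.043, edgeR adjusted p = 5.38e-06). *CDKN1A* was higher in SC cells (155 ± 1.66 against 117 ± 4.28 CPM, log2 fold change 0.41, SE 0.043, edgeR adjusted p = 8.95e-06), as was *ID3*, an inhibitor of differentiation (0.54, SE 0.073, edgeR adjusted p = 0.00012). *ATF3* (0.10, adjusted p = 0.369) and *ARC* (0.74, adjusted p = 0.248) did not pass. The count was 9 without replicate 2 and 10 without replicate 3 of the SC cells at 8 cP. Calls over all genes fell as well, from 3649 of 18264 to 2179 of 18680 and 3028 of 18761.

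**Figure D4:**
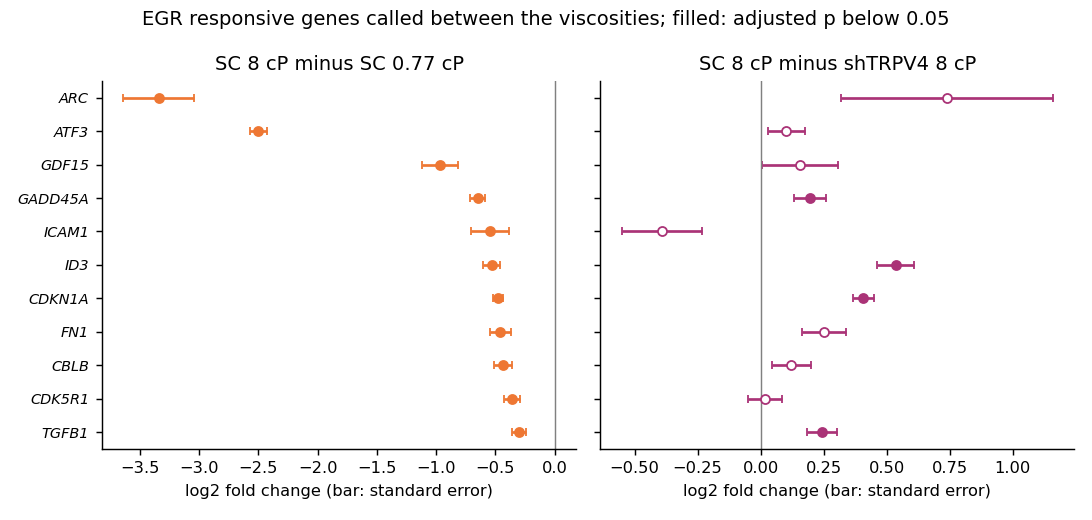
Fitted log2 fold change with its standard error (bars) for the 11 genes known to respond to EGR factors that passed the test between the viscosities, for SC cells at 8 cP, set against those at 0.77 cP (left, the comparison that selected the 11) and against shTRPV4 cells at 8 cP (right), filled where the adjusted p is below 0.05. On the left all lie below 0, from -0.31 to -3.34, and on the right the filled points are *CDKN1A*, *ID3*, *TGFB1* and *GADD45A*, from 0.20 to 0.54.

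Transcripts of the genes that act upstream of the family differed by little. Of 17 regulators, which were SRF, its ternary complex and myocardin-related partners, CREB1 and the kinases upstream of them, 3 passed the test between the viscosities, 2 higher and 1 lower at 8 cP (17.6%, beside 19.3% of all genes, median 0.042). *MAPK3*, which encodes ERK1, was lower at 8 cP (-0.33, SE 0.058, edgeR adjusted p = 0.0020), while *RPS6KA4*, which encodes MSK2, was higher (0.23, SE 0.054, edgeR adjusted p = 0.00981). *SRF* had a log2 fold change of -0.031 (adjusted p = 0.675). Between SC and shTRPV4 cells 5 passed, 3 higher and 2 lower in SC cells (29.4%, beside 20.0% of all genes, median 0.052), of which *ELK3* (-0.23, edgeR adjusted p = 0.00727) and *MRTFA* (-0.21, edgeR adjusted p = 0.0106) were lower in SC cells and *MAP2K1* (0.13, edgeR adjusted p = 0.0442) and *RPS6KA1* were higher. Both counts moved by more than 1.5-fold when single samples were left out, the first to between 1 and 5 genes and the second to as few as 2.

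Among the 13 subunits of NuRD, the deacetylase complex that NAB2 recruits, 3 passed the test in each comparison, which is 23.1% of the list beside 19.3% and 20.0% of all genes, and the differences were small. Between the viscosities *MBD2* (0.16, edgeR adjusted p = 0.0156) and *MTA2* (0.15, edgeR adjusted p = 0.0345) were higher at 8 cP and *GATAD2B* (-0.19, edgeR adjusted p = 0.0415) was lower, with a median of 0.057 over the list. Between SC and shTRPV4 cells *HDAC1* (0.22, edgeR adjusted p = 0.00124) and *RBBP4* (0.16, edgeR adjusted p = 0.0214) were higher in SC cells and *GATAD2A* (-0.28, edgeR adjusted p = 0.0108) was lower, with a median of -0.028. *CHD4*, the subunit that NAB2 binds, had 0.067 (adjusted p = 0.571) and -0.054 (adjusted p = 0.663). Without replicate 1 of the SC cells at 0.77 cP or replicate 3 of the SC cells at 8 cP, the first count was 0 with edgeR, where 3 and 4 subunits had an unadjusted p below 0.05 and DESeq2 called 1 and 2. It was 1 without replicate 2 of either SC group, as was the second count without replicate 2 of the SC cells at 8 cP.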

How the data were processed

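RNA was sequenced from 9 samples of MDA-MB-231 cells, in 3 groups of 3 taken from the titles and characteristics. Per the labels and the paper's methods, stranded poly(A) libraries were read as pairs, mapped to GRCh38.p13 with HISAT2 2.2.1 and counted per gene with HTSeq 0.13.5. The strand option is not given in the sources used here. The authors deposited raw counts per gene for each sample, without normalization. Of 60664 genes, 60463 matched a symbol, and 3 rows naming no gene were left out. Totals were 64571681 to 103518036 counts. The paper calls its experiments independent biological replicates in general terms, but neither it nor the labels says so of these samples, so p-values measure only the spread between these samples, which may be technical.

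The counts were scaled by TMM, filtered with filterByExpr and fitted for all 9 samples with 1 coefficient per group in edgeR 4.0.16 (R 4.3.3, limma 3.58.1), with its quasi-likelihood test and Benjamini-Hochberg adjustment over 18264 genes (threshold 0.05). The method was tested on simulated data. Alternatives were DESeq2 1.42.0, upper quartile factors, no filter, at least 10 counts in every sample, the 6 samples of a comparison alone, the replicate number as a block, and leaving out each sample. Levels per kilobase use the exon bases of GENCODE 44, and promoters come from RefSeq. *EGR2* shares 145 exon bases with ENSG00000289487 on the same strand, which is not among the counted genes. *NAB1* shares 589 and 10 with 2 genes of at most 48 counts, and *NAB2* shares 69 (2.41%) with *STAT6* on the other strand (9813 to 15165 counts).

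The members and the gene lists were chosen with earlier results of these data known. The genes named are the 6 members, *TRPV4*, up to 4 called genes per list and tested comparison, taken by smallest adjusted p, and the 5 genes most like *EGR1* and *NAB2*. *SRF* and *CHD4* were named for their role. The other genes named from the lists, and all repeats of a gene in the other comparison, were chosen after their values were seen. A few results of the lists are not reported here.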

Additional observations from a re-analysis of the deposited data

How the results depend on the processing

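Of 177 member fold changes under the alternatives, 174 kept their sign and 168 kept both their sign and their side of the threshold (tested values) or stayed within the replicate spread (untested values). The log2 fold change of *EGR1* between SC and shTRPV4 cells ran from 0.51 to 0.95 and that of *NAB2* from 0.42 to 0.53, and both passed the test under every alternative run (highest adjusted p = 0.0106 and 0.00214). *EGR2* ranged from 0.69 to 1.20 (adjusted p 0.00226 to 0.191), *EGR3* from 0.81 to 1.25 and *EGR4* from -0.32 to 0.74. *EGR4* reversed without replicate 1 of the shTRPV4 cells (-0.324), and *NAB1* without that sample (-0.021) or replicate 1 of the SC cells at 8 cP (-0.0377), with a range of -0.0377 to 0.0493 over the samples left out. The members called numbered 3 or 4, and those at least 2-fold lower at 8 cP 3 or 4, where *EGR4* had too few counts for the filter of at least 10 counts. Without a filter on low counts, edgeR's adjusted p for *EGR1* was 7.59e-41, and the cause was not tested.

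With single samples left out, the regulators called were 1 to 5 between the viscosities and 2 to 5 between SC and shTRPV4 cells, NuRD subunits 0 to 3 and 1 to 3, EGR responsive genes 10 to 14 and 9 to 16, and all genes 1409 to 4349 and 2179 to 3836. The regulators called were 5 between the viscosities with DESeq2, and 3 between SC and shTRPV4 cells without a filter. The cause of these moves was not tested beyond the smaller number of samples.

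Samples with the same replicate number in different groups had deviations that correlated between -0.0546 and 0.0904 across genes (9 pairs). Those with different numbers correlated between -0.106 and 0.115 (18 pairs), so the ranges overlapped over all pairs of groups. Between the 2 SC groups, the same-number values (0.032 to 0.0904) all lay above the different-number values (-0.0591 to 0.0167). With 3 samples per group these values cannot settle whether the number pairs the samples. The replicate block left 3 regulators called between SC and shTRPV4 cells and changed no call of a member. Depth limits *EGR4* at 8 cP, with at most 10 counts per sample.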
